A study of Mus musculus with 6 samples.

Results

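The genes described are 37 transcripts of the ATF4 and unfolded protein response programs, named by symbol and read by probe sets annotated to exactly 1 of these symbols. All 37 were on the array, of 18193 genes so read, and 36 passed the filter on dim genes. They fall into 16 genes of the ATF4 arm with its serine and one-carbon enzymes, 14 chaperones and folding enzymes of the endoplasmic reticulum (ER), and 7 genes for stress sensors, Xbp1 and ER-associated degradation. They were compared between 3 whole hearts labelled FOG-2R3K5A (mutant from here on) and 3 labelled wild type (WT), all taken at embryonic day 16.5, with 1 array per sample. All embryos came from crosses of double heterozygotes on a mixed C57/B6, 129 S6 background. FOG-2 is a cofactor of GATA factors, and the R3K5A allele carries substitutions known to disrupt its contact with the NuRD chromatin complex. The labels give neither the zygosity of the mutants nor the number of hearts behind a replicate, so p-values measure the spread between these 6 samples.

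When unfolded proteins build up in the ER, the sensor kinases PERK and IRE1 and the membrane-bound factor ATF6 respond. ATF6 and spliced XBP1 raise ER chaperones and degradation factors, while PERK phosphorylates the initiation factor eIF2alpha and thereby favours translation of ATF4. Amino acid shortage and mitochondrial stress also reach ATF4, which raises genes for amino acid supply, serine synthesis and mitochondrial folate metabolism. Part of this control, such as the splicing of Xbp1 and the translation of Atf4, does not show in the level of the transcript that an array reads.

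RefSeq promoter windows (assembly GRCm38.p6, 250 bases before to 50 bases from each transcript start) matched 33 of the 37 genes, but not Aldh1l2, Atf6, Hyou1 or Manf. They are shown because the arms differ in the elements they hold. The ER stress element (ERSE, CCAAT and CCACG with any 9 bases between), searched on both strands, was present in 7 of 12 matched chaperones. It was present in 0 of 15 genes of the ATF4 arm, in 0 of 6 sensor and degradation genes and in 0.119% of all 32851 windows. The matches are written here on the strand of the element, with its fixed bases in capitals, and Hsp90b1 had 2.
Hspa5: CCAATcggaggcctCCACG
Pdia6: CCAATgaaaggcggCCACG
Hsp90b1: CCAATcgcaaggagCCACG
Hsp90b1: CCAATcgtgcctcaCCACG
Calr: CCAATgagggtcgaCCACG
Canx: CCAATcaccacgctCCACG
Creld2: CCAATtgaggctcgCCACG
Dnajc3: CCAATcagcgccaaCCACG

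The related ERSE-II (ATTGG and CCACG with any 1 base between), also searched on both strands, lay in Dnajb11 (ATTGGcCCACG) and Herpud1 (ATTGGgCCACG), against 0.0365% of all windows. None of the ERSE and ERSE-II matches shared bases. The core of the C/EBP-ATF response element (TGATG, any 1 base and AA, both strands) was present in Nupr1, Asns, Chac1 and Trib3 of the ATF4 arm and in Herpud1, and in 3.97% of all windows. A match describes letters and does not show that a factor binds there. The upstream bases of Nupr1, Asns and Hspa5 are given in full, 5′ to 3′ on the strand of the gene. Of these 3 genes only Nupr1 was called with all arrays, and Aldh1l2, the other gene called, had no window. The capitals mark the response element core in Nupr1, where it lies on the opposite strand, and in Asns, and the ERSE in Hspa5.
Nupr1, chr7:126625471-126625720, minus strand: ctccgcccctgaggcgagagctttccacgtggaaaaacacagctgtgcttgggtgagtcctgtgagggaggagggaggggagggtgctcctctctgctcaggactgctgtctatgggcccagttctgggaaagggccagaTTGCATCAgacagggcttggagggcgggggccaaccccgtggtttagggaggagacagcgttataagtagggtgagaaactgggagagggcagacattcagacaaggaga
Asns, chr6:7693210-7693459, minus strand: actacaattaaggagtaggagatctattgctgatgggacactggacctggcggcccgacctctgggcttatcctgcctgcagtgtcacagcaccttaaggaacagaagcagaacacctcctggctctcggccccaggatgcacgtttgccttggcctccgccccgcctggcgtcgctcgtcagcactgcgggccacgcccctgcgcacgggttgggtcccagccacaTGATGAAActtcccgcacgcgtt
Hspa5, chr2:34771840-34772089, plus strand: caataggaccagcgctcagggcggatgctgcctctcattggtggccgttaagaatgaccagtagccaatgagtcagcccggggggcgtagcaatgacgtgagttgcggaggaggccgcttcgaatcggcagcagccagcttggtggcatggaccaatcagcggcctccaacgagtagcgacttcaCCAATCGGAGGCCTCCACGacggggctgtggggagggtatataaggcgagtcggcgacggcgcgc

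The arrays showed the labelled tissue, with all 8 cardiomyocyte markers above the filter and 0 of them called. Their summed intensities were 78318 to 81398 in WT and 83548 to 84679 in mutants, without overlap, and Myh6, Myl7 and Nppa were higher in every mutant, by 0.10 to 0.14 log2 units. Median intensities ran from 77.4 to 84.1. On the first principal component WT replicates 1, 2 and 3 lay at -1.08, -21.1 and -11.2, and the mutants at 8.55 to 13.1. WT replicate 1 was thus the WT array nearest the mutants there. When limma weighted the arrays by quality, WT replicate 2 had the lowest weight (0.46), followed by mutant replicate 3 (0.56) and WT replicate 1 (0.57). The 18S ribosomal RNA controls of WT replicate 1 averaged 969 in intensity. They averaged 429 and 411 in WT replicates 2 and 3 and 631 to 1051 in mutants. Results are also given without WT replicate 1, a choice made after seeing the data. Leaving out the WT array nearest the mutants can widen differences by construction. Mesothelial and lung marker lists also moved with genotype or with single arrays. Of 4 mesothelial markers 3 were called higher, with summed intensities of 1858 to 2034 in WT and 2759 to 3230 in mutants. The remaining marker, the gene Wt1, overlapped, with 7.81 to 8.60 in WT and 7.89 to 8.28 in mutants (difference -0.06). The 6 lung and airway markers summed to 173 to 285 in WT and 176 to 3457 in mutants. The lung secretoglobin Scgb3a2 read 9.03, 4.87 and 11.36 log2 units in mutant replicates 1, 2 and 3, and the surfactant gene Sftpc 6.17, 5.80 and 9.43, while Nkx2-1, Sftpa1 and Scgb1a1 lay under the filter. Sftpb, the remaining lung marker above the filter, did not rise, with 6.12 to 7.03 in WT and 6.04 to 6.88 in mutants (difference -0.14). In whole hearts, fewer cells of a type and less RNA per cell cannot be told apart.

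Nupr1 rose and Aldh1l2 fell in mutant hearts, and the other 34 tested genes did not pass. The share called among all 11113 genes tested was 1.76% (1.39% higher, 0.369% lower), so 2 of 36, with 1 in each direction, is a small count beside a small background. The members were chosen with earlier results of these data known, so their share is not independent of these data. Without WT replicate 1, where 4.06% of all genes were called, the genes called were Nupr1, Hspa5, Pdia6 and Manf, all higher. That array was the highest WT array in Hspa5, Pdia6 and Manf, so their larger differences without it followed from leaving it out. At an unadjusted p under 0.05 there were 8 of 36, against 14.7% of all genes. Differences were positive for 30 of 36 genes, against 47.2% of all genes, and their median was 0.12 log2 units against -0.01 over all genes tested. The 3 arms were unlike each other in this count, with 9 of 15 positive in the ATF4 arm, 14 of 14 among ER chaperones and 7 of 7 among sensors and ER-associated degradation, a description for which the difference between arms was not tested. Genes of an arm were read on the same arrays, so they are not independent readings of the genotypes.

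**Figure D1:**
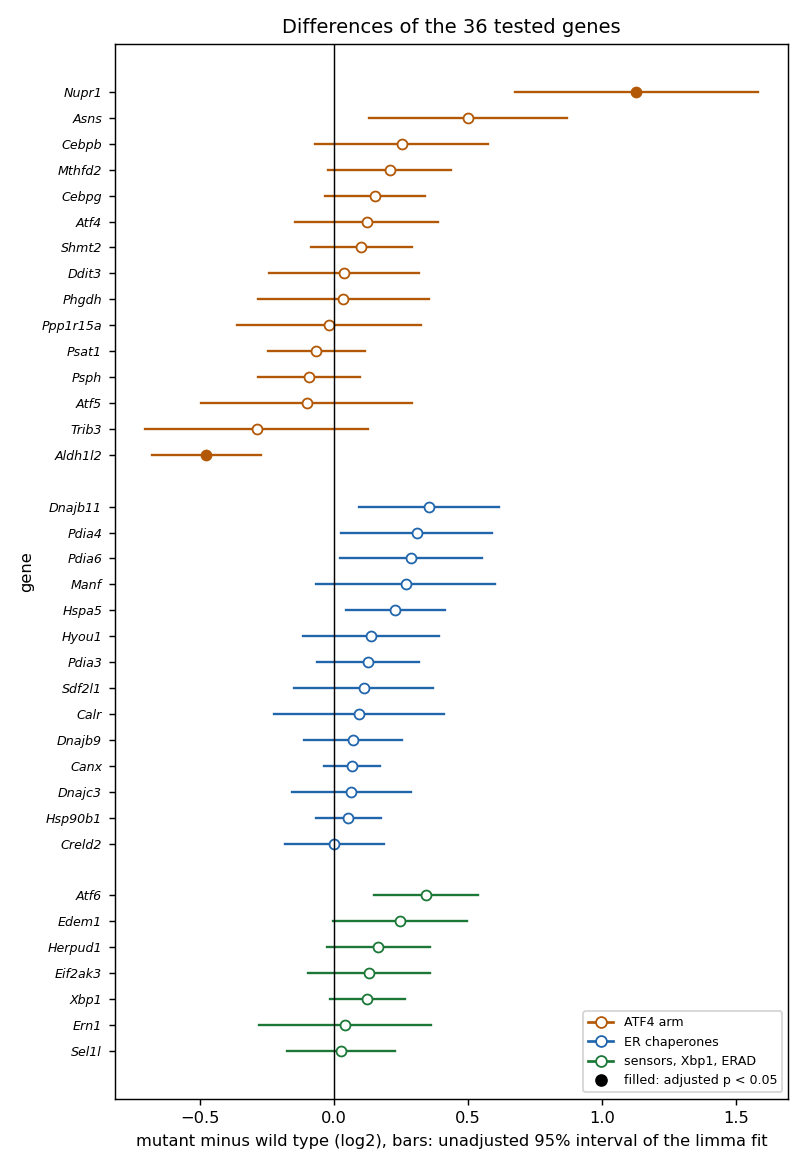
Difference between mutant and wild type (log2 units, x axis) for each of the 36 tested genes (y axis), by arm, with the unadjusted 95% interval of the limma fit as bars and filled points for an adjusted p under 0.05. Only Nupr1 (1.13) and Aldh1l2 (-0.47) are filled, and all 14 chaperone points lie at or to the right of 0.

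Nupr1 encodes a small chromatin-associated protein induced by many stresses. Its log2 intensities were 6.49, 6.42 and 6.68 in WT replicates 1, 2 and 3 and 7.82, 7.18 and 7.97 in the mutants, which on the linear scale is 85.5 to 102 against 145 to 251. The genotypes did not overlap, mutant replicate 2 was the lowest mutant, and the WT values lay just above the filter level of 6.30. The rise was 1.13 (SE 0.20, 2.19-fold, limma adjusted p = 0.0311). The call held in 7 of 15 alternative settings (adjusted p = 0.00772 to 0.999) and was lost without any 1 of WT replicates 2 and 3 and mutant replicates 1 and 3. The other probe set above the filter read 7.74, 6.26 and 6.52 in WT and 7.40, 6.57 and 7.47 in mutants. There the genotypes overlapped through WT replicate 1, and the difference was 0.31. The order of the mutants at the main probe set, with replicate 2 lowest and replicate 3 highest, was also that of Scgb3a2. With mutant replicates 1 and 3 left out, a setting chosen after seeing the data, the difference was 0.65. These are also the 2 arrays highest in Nupr1, so a smaller value followed from their choice and bears on no cause. The part of lung or mesothelial RNA in its rise was not tested.

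Aldh1l2 encodes the mitochondrial enzyme that oxidises the formyl group of 10-formyltetrahydrofolate and yields NADPH. It read 9.49, 9.31 and 9.54 in WT and 8.96, 8.92 and 9.02 in mutants. All 3 mutants lay below all 3 WT arrays, each genotype with a narrow spread. The gene fell by 0.47 log2 units, or 1.39-fold, with an SE of 0.09 and a limma adjusted p of 0.0370. It has 1 probe set here, so no other reading of it could be set beside this one. The call held in 6 of 16 alternative settings (adjusted p = 0.00895 to 0.786), while the difference stayed between -0.54 and -0.43. It was lost without WT replicate 1 (adjusted p = 0.0515), and without WT replicate 3 or any 1 of the mutants.

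Around Aldh1l2, the other enzymes of serine and folate metabolism gave values in both directions. Mthfd2, the mitochondrial enzyme of folate metabolism on the preceding steps, had a difference of 0.21 (adjusted p = 0.384), with 8.05 to 8.14 in WT and 8.17 to 8.43 in mutants. The genotypes did not overlap at this probe set, and did at the other (0.15). Shmt2, which splits serine into glycine and a one-carbon unit in mitochondria, had 0.10, with 0.0037 and 0.28 at its other probe sets above the filter. The serine synthesis enzymes acting in sequence, Phgdh, Psat1 and Psph, had 0.04, -0.07 and -0.09. Their 95% intervals, -0.28 to 0.35, -0.25 to 0.12 and -0.28 to 0.10, exclude a 2-fold change in either direction at these probe sets. The 4 Phgdh probe sets ran from -0.06 to 0.30.

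Asns, which makes asparagine and is a long-known target of ATF4, read 8.63, 8.00 and 8.46 in WT and 9.07, 8.77 and 8.76 in mutants. The genotypes did not overlap, and WT replicate 1 was the closest WT array to the mutants. The difference was 0.50 (SE 0.16, 1.41-fold) and did not pass (adjusted p = 0.195). It was 0.63 without WT replicate 1 (adjusted p = 0.0711) and 0.32 without WT replicate 2 (adjusted p = 0.332), and over all alternative settings the adjusted p ran from 0.0711 to 0.999. The other probe set, at 7.55 to 8.13 in WT and 8.39 to 8.74 in mutants, gave 0.72, also without overlap.

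Of the regulators in this arm, Atf4 itself read 9.97, 9.87 and 10.30 in WT and 10.04, 10.18 and 10.29 in mutants. The highest WT array lay above all mutants, and the difference was 0.12 (SE 0.12, adjusted p = 0.666), with -0.03 at the other probe set above the filter. Ddit3, which encodes the stress factor CHOP, read 7.83, 7.58 and 7.82 in WT and 7.91, 7.61 and 7.84 in mutants, nearly the same 3 levels in both genotypes (difference 0.04, 95% interval -0.24 to 0.32). Trib3, a pseudokinase induced by ATF4 and CHOP, had -0.29 and Atf5, a related leucine zipper factor, -0.10. Ppp1r15a, the phosphatase subunit GADD34 that reverses eIF2alpha phosphorylation, had -0.02. Cebpb and Cebpg, dimer partners of ATF4, had 0.25 and 0.15. The Cebpb value came largely from mutant replicate 3, at 9.41 against 8.95 and 8.83 in the other mutants. Chac1, an enzyme that degrades glutathione, was under the filter in both genotypes (5.67 ± 0.15 and 5.62 ± 0.22, SD, n = 3) and was not tested. None of these regulators passed (adjusted p of 0.427 to 0.967). In the arm as a whole the median difference was 0.04, and the genotypes did not overlap for 5 of 15 tested genes, 4 higher and 1 lower, against 11.5% of all genes higher and 9.76% lower.

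**Figure D2:**
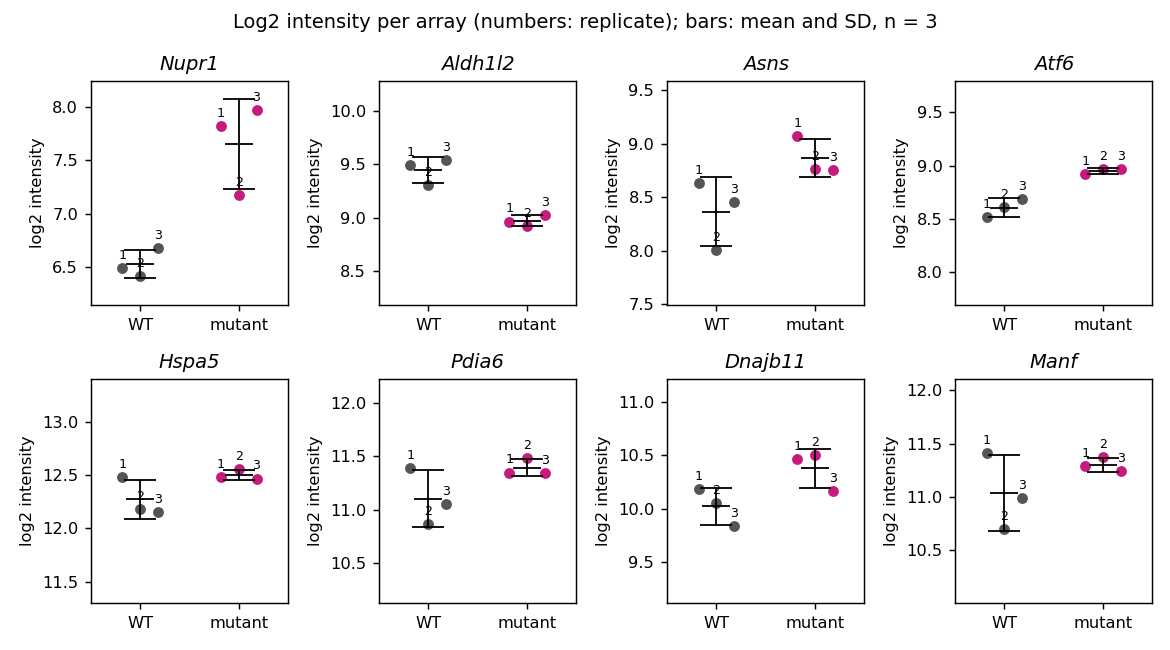
Log2 intensity (y axis) of 8 genes in each array, by genotype (x axis), with replicate numbers beside the points and bars for the mean and SD of 3 arrays. Axes span the same range of log2 units, with a different centre in each panel. Nupr1, Asns and Atf6 are higher in all mutants and Aldh1l2 lower, while WT replicate 1 reaches the mutants in Hspa5, Pdia6 and Manf.

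The ER chaperones had positive differences without exception, from 0.0010 to 0.36 log2 units with a median of 0.12. By limma 0 of 14 were called, against 1.76% of all genes, and 4 had an unadjusted p under 0.05, against 14.7%. Their median deviation from the gene means was 0.06, -0.10 and -0.19 in WT replicates 1, 2 and 3. In mutant replicates 1, 2 and 3 it was 0.0039, 0.15 and 0.07. The SD of this median within genotypes was 0.10, near the size of the difference. Hspa5 encodes BiP, the main Hsp70 of the ER. It read 12.48, 12.19 and 12.15 in WT replicates 1, 2 and 3 and 12.49, 12.55 and 12.47 in the mutants. WT replicate 1 lay among the mutants, and the other WT arrays below them. With all arrays the difference was 0.23 (SE 0.08, adjusted p = 0.233). Without WT replicate 1 it was 0.33 (SE 0.05, adjusted p = 0.0130). Its other probe sets above the filter gave 0.15 and -0.16, both with overlap.

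The calls of Pdia6 and Manf also depended on the WT arrays kept. Pdia6, a protein disulfide isomerase, read 11.39, 10.87 and 11.06 in WT and 11.35, 11.49 and 11.34 in mutants. Its difference was 0.29 (adjusted p = 0.296) with all arrays, 0.43 (SE 0.08, adjusted p = 0.0316) without WT replicate 1, and 0.17 (adjusted p = 0.550) without WT replicate 2. Manf, an ER-resident and secreted factor induced by ER stress, read 11.41, 10.70 and 10.99 in WT and 11.29, 11.37 and 11.24 in mutants, and WT replicate 1 was the highest of all 6 arrays. Its difference was 0.27 (adjusted p = 0.439), and 0.46 (SE 0.09, adjusted p = 0.0384) without that array. Without WT replicate 2, the lowest of the 6, it was 0.10 (adjusted p = 0.773).

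Dnajb11, a J-domain partner of BiP, had the largest difference among the chaperones at the main probe sets, with 10.18, 10.05 and 9.83 in WT and 10.47, 10.50 and 10.16 in mutants. Mutant replicate 3 lay just under WT replicate 1. The difference was 0.36 (SE 0.12, adjusted p = 0.193), and it passed with array weights (0.47, adjusted p = 0.0334). Pdia4, another disulfide isomerase, had 0.31 (adjusted p = 0.293), with 8.65 to 8.99 in WT and 8.93 to 9.31 in mutants. Of the remaining J-domain proteins Dnajb9 had 0.07 and Dnajc3 0.07, the latter with -0.04 to 0.34 at 4 other probe sets. Sdf2l1, which works with Dnajb11, had 0.11, and Hyou1, an exchange factor of BiP, 0.14. Pdia3, the isomerase of glycoprotein folding, had 0.13, and its lectin partners Calr and Canx 0.09 and 0.07. Hsp90b1, the Hsp90 of the ER, had 0.05, and Creld2, a secreted ER stress factor, 0.0010. The 95% intervals of Hsp90b1 (-0.07 to 0.18) and Canx (-0.04 to 0.17) leave room for small changes only at these probe sets.

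WT replicate 1 was the highest WT array for 11 of 14 chaperones, against 34.3% of all genes, and reached or passed the lowest mutant for 12 of 14, against 7896 of 11113 genes. In the other pathway lists below, the share with WT replicate 1 highest in WT ran from 11.8% (other ATF4 targets) to 76.7% (ER translocation). It was 55.6% for other ER folding genes. With all arrays, 0 of 14 chaperones were free of overlap, against 11.5% of all genes higher and 9.76% lower. Without WT replicate 1, 6 of 14 were higher in every mutant than in both other WT arrays, against 19.9% of all genes, and the median difference was 0.18. As that array was the highest WT array for most chaperones, a larger median without it followed from its choice. The 18S controls of that array were also higher than those of the other WT arrays, and the part of RNA or array quality in the chaperone values was not tested. The 5 fibroblast markers, of cells rich in secretory ER, summed to 26832 to 29642 in WT and 28816 to 30827 in mutants, with overlap. Of these, Dcn (0.24, adjusted p = 0.0690) and Col1a2 (0.14) were higher in every mutant than in every WT array, Postn had 0.01, and Col1a1 and Col3a1 had -0.02 each. The part of fibroblast RNA in the chaperone values was not tested. Markers of other secretory cells were dim: 2 of 3 acinar markers on the array passed the filter, 1 of 4 liver markers and 3 of 4 of plasma and B cells, and 0 of these were called.

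**Figure D3:**
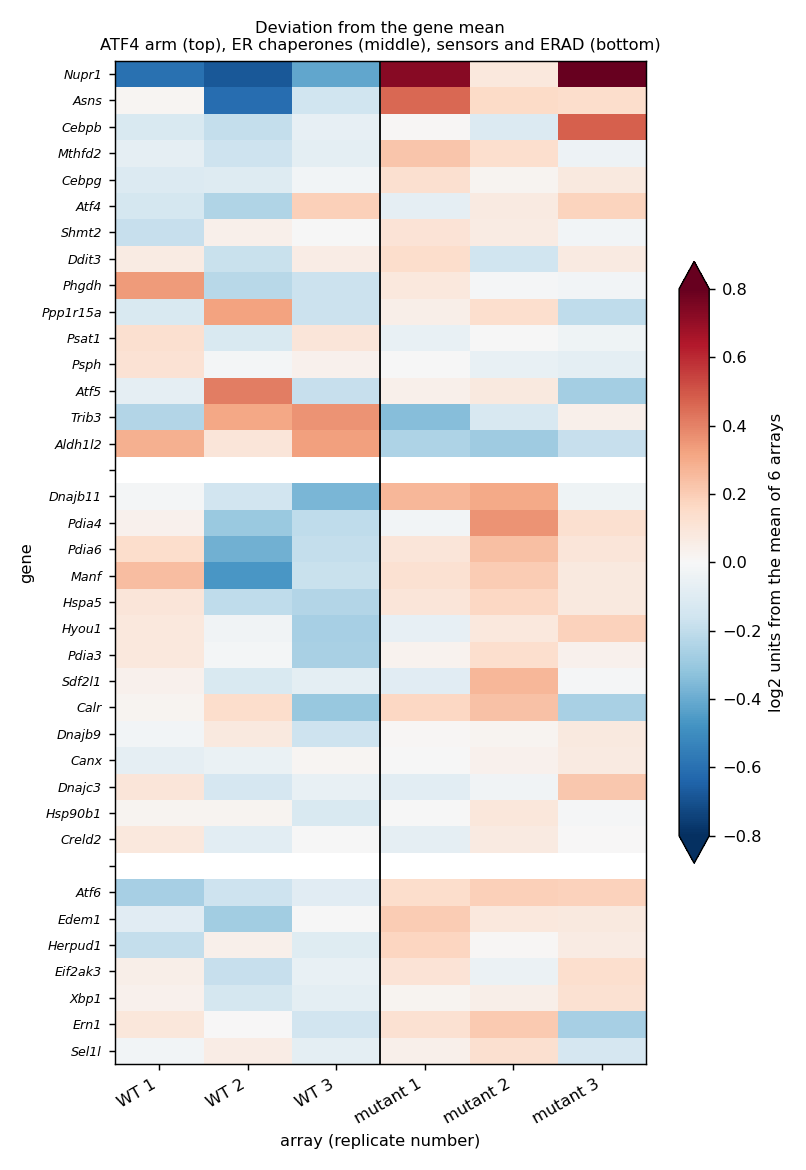
Deviation of each array (x axis) from the mean of all 6, in log2 units by colour, for the 36 tested genes (y axis), grouped by arm and ordered by difference. In the chaperone block mutant replicates 2 and 3 and WT replicate 1 are mostly above the mean and WT replicates 2 and 3 mostly below. Mutant replicate 1 is mixed there, with a median deviation of 0.0039. Values beyond 0.8 share the end colours.

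Among the sensors, Atf6, the membrane-bound transcription factor that is cleaved under ER stress, read 8.52, 8.62 and 8.69 in WT and 8.92, 8.97 and 8.97 in mutants. All mutants lay above all WT arrays, WT replicate 1 being here the lowest. The difference was 0.34 (SE 0.09, 1.27-fold), which did not pass at 0.05 (adjusted p = 0.0968). The other 2 probe sets gave 0.30 and 0.29, also without overlap. The difference stayed between 0.30 and 0.39 in 16 alternative settings (adjusted p = 0.0593 to 0.999).

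Xbp1, the factor whose transcript is spliced by IRE1, read 11.59, 11.41 and 11.48 in WT and 11.58, 11.60 and 11.68 in mutants. WT replicate 1 lay between mutant replicates 1 and 2, and the difference was 0.13 (SE 0.06, adjusted p = 0.387). Its other probe sets above the filter gave 0.34, without overlap, and 0.12. None of these values tells spliced from unspliced transcript. Eif2ak3, which encodes PERK, had 0.13. Ern1, which encodes IRE1, had 0.04, with -0.33 at its other probe set above the filter, so its direction was not settled.

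The genes of ER-associated degradation gave small values. Edem1, which helps pick misfolded glycoproteins for disposal, read 7.54 to 7.82 in WT and 7.90 to 8.02 in mutants. The genotypes did not overlap there, and the difference was 0.25 (adjusted p = 0.348), with 0.24 at the other probe set. Herpud1, a scaffold of the degradation complex, had 0.17, with 0.11 at its other probe set. Sel1l, the adaptor of the ubiquitin ligase in that complex, had 0.03, and its other probe sets above the filter ran from -0.07 to 0.15.

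Probe sets of a gene can read different parts or forms of its transcripts. Of 33 other probe sets above the filter, in 20 genes, 26 had the sign of the main probe set. In 7 genes at least 1 had the opposite sign, namely Atf4, Phgdh, Hspa5, Canx, Dnajc3, Ern1 and Sel1l. For Asns, Nupr1, Cebpg, Mthfd2, Shmt2, Calr, Hsp90b1, Hyou1, Atf6, Edem1, Herpud1 and Xbp1 every probe set above the filter was positive. For Psat1 both were negative.

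**Figure D4:**
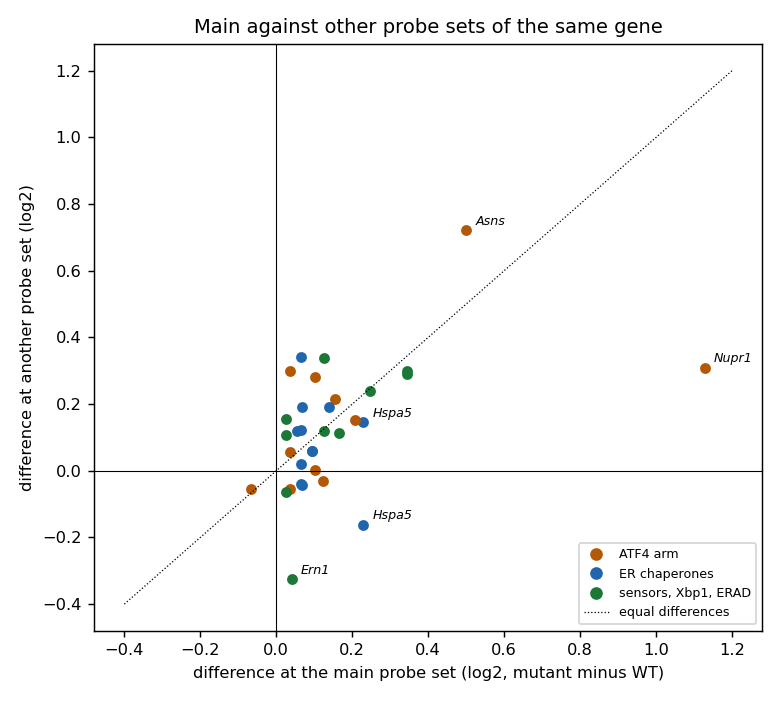
Difference at the main probe set (x axis) against that at each other probe set above the filter (y axis), both in log2 units, for 20 genes, coloured by arm, with a dotted line of equal differences. Asns lies above the line (0.50 and 0.72), Nupr1 far below it (1.13 and 0.31), and Ern1 and 1 Hspa5 probe set lie below 0 on the y axis.

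Other genes of the same pathways, in 9 lists, were read for 198 of 211, and 183 were tested. Of these 2 rose and 0 fell, a share below the 1.76% of all genes called. Erlec1, a lectin of ER-associated degradation, read 9.31 to 9.35 in WT and 9.81 to 9.89 in mutants (difference 0.51, SE 0.07, adjusted p = 0.0120). Calu, a calcium-binding protein of the secretory pathway, read 12.20 to 12.30 in WT and 12.43 to 12.54 in mutants (0.26, SE 0.05, adjusted p = 0.0444). Each had another probe set of opposite sign, at -0.06 and -0.07, and the remaining one of Erlec1 gave 0.0026. The call of Calu was lost without any 1 array other than WT replicate 1 (adjusted p = 0.0577 to 0.235), and that of Erlec1 without WT replicate 3 or mutant replicate 1 or 3 (0.0513 to 0.111). With WT replicate 1 left out 7 of the 183 genes were called, Calu, Ddost, Erlec1, Fkbp9, Pdia5, Sdf4 and Uggt1, a share near the 4.06% of all genes.

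Beyond the ER chaperones described above, 36 further ER folding genes had 34 positive differences with a median of 0.16, of which 1, Calu, passed. For 14 of these genes all mutants lay above all WT arrays and for 1 below, against 11.5% and 9.76% of all genes. Sdf4 had 0.39 (adjusted p = 0.0660), Uggt1, the folding sensor of glycoproteins, 0.40 and Pdia5 0.49. Of 30 genes of ER translocation and glycosylation 26 were positive, with a median of 0.13 and 13 above without overlap, and 0 passed (9 at an unadjusted p under 0.05, against 14.7% of all genes), with Rpn2 of the oligosaccharyltransferase at 0.26 and Ssr4 at 0.20. Of 28 other degradation genes 20 were positive (median 0.05), with Selenos at 0.24. The 18 other stress factors and their processing enzymes had a median of 0.05, and Bcl2l11, which encodes the death factor BIM, had -0.35 and the kinase Map3k5 -0.31, both without overlap and without a call.

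The other lists on the ATF4 side had medians near that of all genes. The 17 other ATF4 targets had 8 positive differences and a median of -0.03, and 0 passed. By limma 5 of them had an unadjusted p under 0.05 (4 higher and 1 lower), against 14.7% of all genes. Aldh18a1, an enzyme of proline synthesis, had -0.61 (adjusted p = 0.186), with WT replicate 2 at 10.25 against 9.45 and 9.40 in WT replicates 1 and 3 and 9.03 to 9.14 in mutants. Ddit4, an inhibitor of mTOR signalling, had 0.50 (adjusted p = 0.236), with WT replicate 2 at 9.86 among the mutants (9.79 to 9.99) and the other WT arrays at 9.05 and 9.24. Without WT replicate 2 it was called (0.74, SE 0.10, adjusted p = 0.0203). The 19 aminoacyl-tRNA synthetases had a median of 0.01 and ran from -0.17 to 0.14, with Lars at 0.14 and Kars at -0.09, and 0 of them had an unadjusted p under 0.05. The 9 amino acid transporters had a median of -0.02, with Slc38a1 at -0.16 and Slc7a1 at 0.15. The 12 other folate and serine genes had a median of -0.04. Among these, Shmt1, the cytosolic counterpart of Shmt2, had -0.37 (adjusted p = 0.121), with 8.58 to 8.78 in WT and 8.18 to 8.40 in mutants and no overlap, and Dld had -0.16. The 14 genes of eIF2, its kinases, exchange factor and phosphatase, with related genes such as Gcn1 and Impact, had a median of 0.04. Impact had 0.26 and Eif2b2 0.19. In the amino acid, folate and eIF2 lists 0 genes passed by limma (1 each at an unadjusted p under 0.05).

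**Figure D5:**
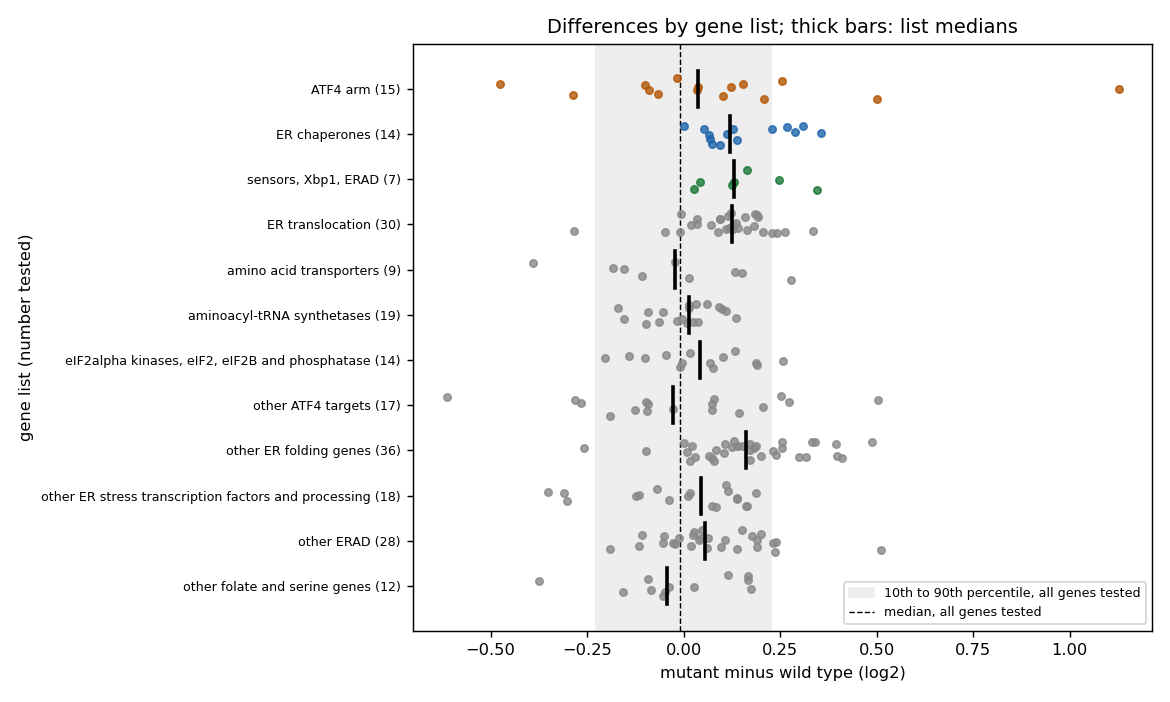
Differences between mutant and wild type (log2 units, x axis) of the tested genes in each list (y axis, with the number tested), a thick bar at each list's median, the median of all genes as a dashed line and their 10th to 90th percentile shaded. The lists of ER chaperones, other ER folding genes and ER translocation have medians of 0.12 to 0.16, and those of synthetases, transporters and other ATF4 targets lie within 0.03 of 0.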

How the data were processed

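The table deposited by the authors gives 1 intensity per probe set, on a linear scale, for 6 1-colour Affymetrix arrays, hybridised, per the labels' protocols, with biotin-labelled target from 3 µg of Trizol-extracted total RNA. How probe sets were summarised and normalized: not given in the sources used here. Array medians lay within 0.12 log2 units, so no further normalization was applied. Intensities were floored at 1 and log2-transformed. Of 45101 probe sets (64 controls), 34945 had 1 symbol in the platform annotation. Each gene was read by its brightest probe set over 6 arrays, and genes were kept where their mean exceeded 6.30 log2 units (intensity 78.9), the median over non-control probe sets, leaving 11113. The 2 genotypes entered a limma 3.58.1 fit (R 4.3.3, lmFit and two-sided eBayes tests with an intensity trend). Benjamini-Hochberg adjustment ran over all genes tested, with calls at 0.05. Differences are mutant minus WT, SE is limma's, and SD is over 3 arrays. The number of arrays limits precision. The fit was tested on simulated data.

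The members and lists were chosen with earlier results of these data known. The naming rule covered all members, called genes of the other lists and otherwise the 2 smallest p per list; further genes were named after their values were seen. RefSeq tables gave symbols and promoter windows. Alternatives were normalization, offset, filter, probe sets, variance model, array weights, threshold, replicate block and arrays left out.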

Additional observations from a re-analysis of the deposited data

How the results depend on the processing

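With 1 array left out in turn, the genes called in all numbered 37 to 451, the members called 0 to 4 and the other pathway genes called 0 to 7. The median difference was 0.00078 to 0.095 in the ATF4 arm, 0.07 to 0.18 among ER chaperones and 0.085 to 0.19 for sensors and degradation. The cause of these changes was not tested. Genes called in all were 81 with no filter, 106 with the filter at the 75th percentile, 125 with the mean over probe sets, 119 without the intensity trend, 429 with array weights, 369 at an adjusted p under 0.1 and 5 with mutant replicates 1 and 3 left out, which keeps 1 mutant array, assumed to vary like WT. Members called were 1 with quantile normalization, median centring, the stricter filter or the mean over probe sets, 3 with array weights (Dnajb11 added) and at an adjusted p under 0.1 (Atf6 added), and 0 without a filter, without the trend or without mutant replicates 1 and 3. Other pathway genes called were 1 with median centring, without a filter or without the trend, 0 with the mean over probe sets or without mutant replicates 1 and 3, 7 with array weights and 4 at an adjusted p under 0.1. The median was 0.10 in the ATF4 arm with the stricter filter, 0.24 for sensors and degradation with the mean over probe sets, and 0.24 among ER chaperones without mutant replicates 1 and 3. Signs changed, with no call on either side, for Ddit3 (-0.12 with the mean over probe sets, -0.14 without mutant replicates 1 and 3), Atf5 (0.044 with array weights, 0.025 without those mutants), Ppp1r15a (0.0088 with quantile normalization, 0.024 with median centring, 0.10 with array weights, 0.12 without those mutants), Dnajc3 (-0.0013) and Creld2 (-0.0074), both with array weights. With single arrays left out the ranges crossed 0 for Ddit3 (-0.043 to 0.13), Phgdh (-0.067 to 0.21), Atf5 (-0.22 to 0.080), Ppp1r15a (-0.11 to 0.14), Calr (-0.034 to 0.25), Dnajc3 (-0.025 to 0.13), Ern1 (-0.053 to 0.19), Creld2 (-0.040 to 0.043) and Sel1l (-0.032 to 0.10). With the replicate number as a block 234 genes were called, Nupr1 and Aldh1l2 among them. Same-numbered arrays had deviations correlated at -0.06, 0.13 and 0.41, and for 1 of 3 numbers both arrays correlated best with their own, so the number was not taken as a pairing.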
